A study of Homo sapiens with 24 samples.

Results

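Interferon-stimulated genes, 9 in all, were followed across BT-474 cells given HER2 or control siRNA and estrogen or vehicle: HERC5, HERC6, IRF9, IFI6, ISG15, IFIT3, IFIT1, IFI44 and IFI27. Each gene was read on the Affymetrix HG-U133 Plus 2.0 array by probe sets annotated to it alone, and where there were several, the one with the highest mean over the 24 arrays was taken. All 9 of the 9 genes had such a probe set, among 19775 genes on the array with one. BT-474 is an established human breast cancer line with amplified HER2 (gene symbol ERBB2) that also carries the estrogen receptor, so every value here comes from 1 cell line. The 8 groups of 3 arrays were HER2 siRNA with 10 nM estrogen and HER2 siRNA with vehicle (0.001% ethanol), control siRNA with 10 nM estrogen and control siRNA with vehicle, each at 24 h and at 4 h. Every group carried an siRNA, and untransfected cells were not analysed here. The labels name no second HER2 siRNA, so loss of HER2 and other effects of that siRNA cannot be told apart. The labels did not say whether the 3 arrays of a group came from separate cultures, so the tests measure the spread between these arrays, which may be technical.

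Interferons signal through cell-surface receptors whose kinases, JAK1 and TYK2, phosphorylate STAT proteins. The activated STAT proteins join IRF9, and the complex binds a DNA element, the interferon-stimulated response element (ISRE), upstream of many target genes that oppose viral replication. In epithelial tumours such genes can also be expressed without infection. ISG15 is a small ubiquitin-like protein that is attached to other proteins, HERC5 is the main ligase that attaches it in human cells, and HERC6 is the related protein that does so in the mouse.

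The 250 bases before the start site of the 5 members that the results turn on are shown because they differ in the interferon element, which all 9 genes might be assumed to carry. They were taken from RefSeq on build GRCh38.p14, run 5' to 3' on the strand of the gene, and end at the base before the start. Capitals mark matches, on either strand, to GAAA followed after any 2 bases by GAAA (the ISRE core) or to TTCNNNGAA, N being any base (the GAS element of interferon-gamma signalling).
HERC5: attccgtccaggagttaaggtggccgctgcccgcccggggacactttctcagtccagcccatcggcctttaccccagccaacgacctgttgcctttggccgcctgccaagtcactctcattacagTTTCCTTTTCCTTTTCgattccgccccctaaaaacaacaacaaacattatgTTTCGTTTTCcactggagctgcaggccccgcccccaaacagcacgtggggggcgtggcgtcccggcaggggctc
HERC6: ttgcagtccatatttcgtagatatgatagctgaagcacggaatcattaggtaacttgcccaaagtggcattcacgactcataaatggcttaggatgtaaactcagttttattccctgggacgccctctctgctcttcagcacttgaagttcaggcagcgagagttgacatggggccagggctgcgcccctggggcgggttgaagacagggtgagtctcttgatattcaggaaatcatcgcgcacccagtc
IFI6: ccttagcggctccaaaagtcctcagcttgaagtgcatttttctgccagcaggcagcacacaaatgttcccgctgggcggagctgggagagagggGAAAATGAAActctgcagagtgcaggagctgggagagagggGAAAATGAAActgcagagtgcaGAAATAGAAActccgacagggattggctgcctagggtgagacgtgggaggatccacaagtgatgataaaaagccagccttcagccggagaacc
ISG15: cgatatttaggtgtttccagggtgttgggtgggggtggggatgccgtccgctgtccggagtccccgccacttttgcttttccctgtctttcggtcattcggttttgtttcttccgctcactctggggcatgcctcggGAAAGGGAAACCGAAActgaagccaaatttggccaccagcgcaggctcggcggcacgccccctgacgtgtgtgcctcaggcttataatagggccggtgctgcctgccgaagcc
IRF9: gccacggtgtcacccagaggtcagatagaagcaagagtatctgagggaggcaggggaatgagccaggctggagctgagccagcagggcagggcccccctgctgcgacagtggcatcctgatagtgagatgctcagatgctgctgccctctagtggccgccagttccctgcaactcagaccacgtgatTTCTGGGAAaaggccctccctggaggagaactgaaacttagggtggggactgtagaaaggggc
The HERC5 window (chr4:88456869-88457118, plus strand) held 3 matches to the ISRE core, 2 of them overlapping. IFI6 (chr1:27672193-27672442, minus strand) held 3 and ISG15 (chr1:1013247-1013496, plus strand) held 2 that overlap. The HERC6 window (chr4:88378602-88378851, plus strand) held none of the motifs searched, and the IRF9 window (chr14:24161015-24161264, plus strand) held 1 GAS match and no ISRE core. IFIT1, IFIT3, IFI44 and IFI27 each held at least 1 ISRE core, so that 7 of the 9 genes and 10 of their 12 annotated start sites did, against 3.02% of all 35116 windows of this length. The GAS letters were in 3 of the 12 windows, which belong to 2 genes (IFI27 and IRF9), and in 6.57% of all windows. The 2 windows of IFI27 overlap and share their matches, as do the 2 of IFI44. The window counts thus hold these sites more than once. The palindromic estrogen response element, GGTCA followed after any 3 bases by TGACC, was in none of the 12 and in 0.0399% of all windows. A match describes letters in this window and not a bound site, and a missing match says nothing of sites elsewhere.

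Values are log2 levels from RMA, in which 1 unit is a 2-fold change, and levels under 5 are called near background. Of the members, 3 stayed under 5 on every array. IFIT1, which binds RNA lacking the cap methylation of host messages, ranged from 3.63 to 4.19. IFI44, an interferon-induced cytoplasmic protein, ranged from 3.40 to 4.13, and IFI27, a small hydrophobic membrane protein, from 3.77 to 4.35. These 3 genes were near background in all 8 groups and were not tested, and their groups formed an unbroken chain of overlapping ranges. HERC5 averaged 4.82 over the 24 arrays and was near background as well, except in cells given both HER2 siRNA and estrogen. It was at or above 5 on 4 arrays, all from that combination, and so entered the test only through the groups in which it was high. HERC6, IRF9, IFI6, ISG15 and IFIT3 were above 5 on all 24 arrays.

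**Figure D1:**
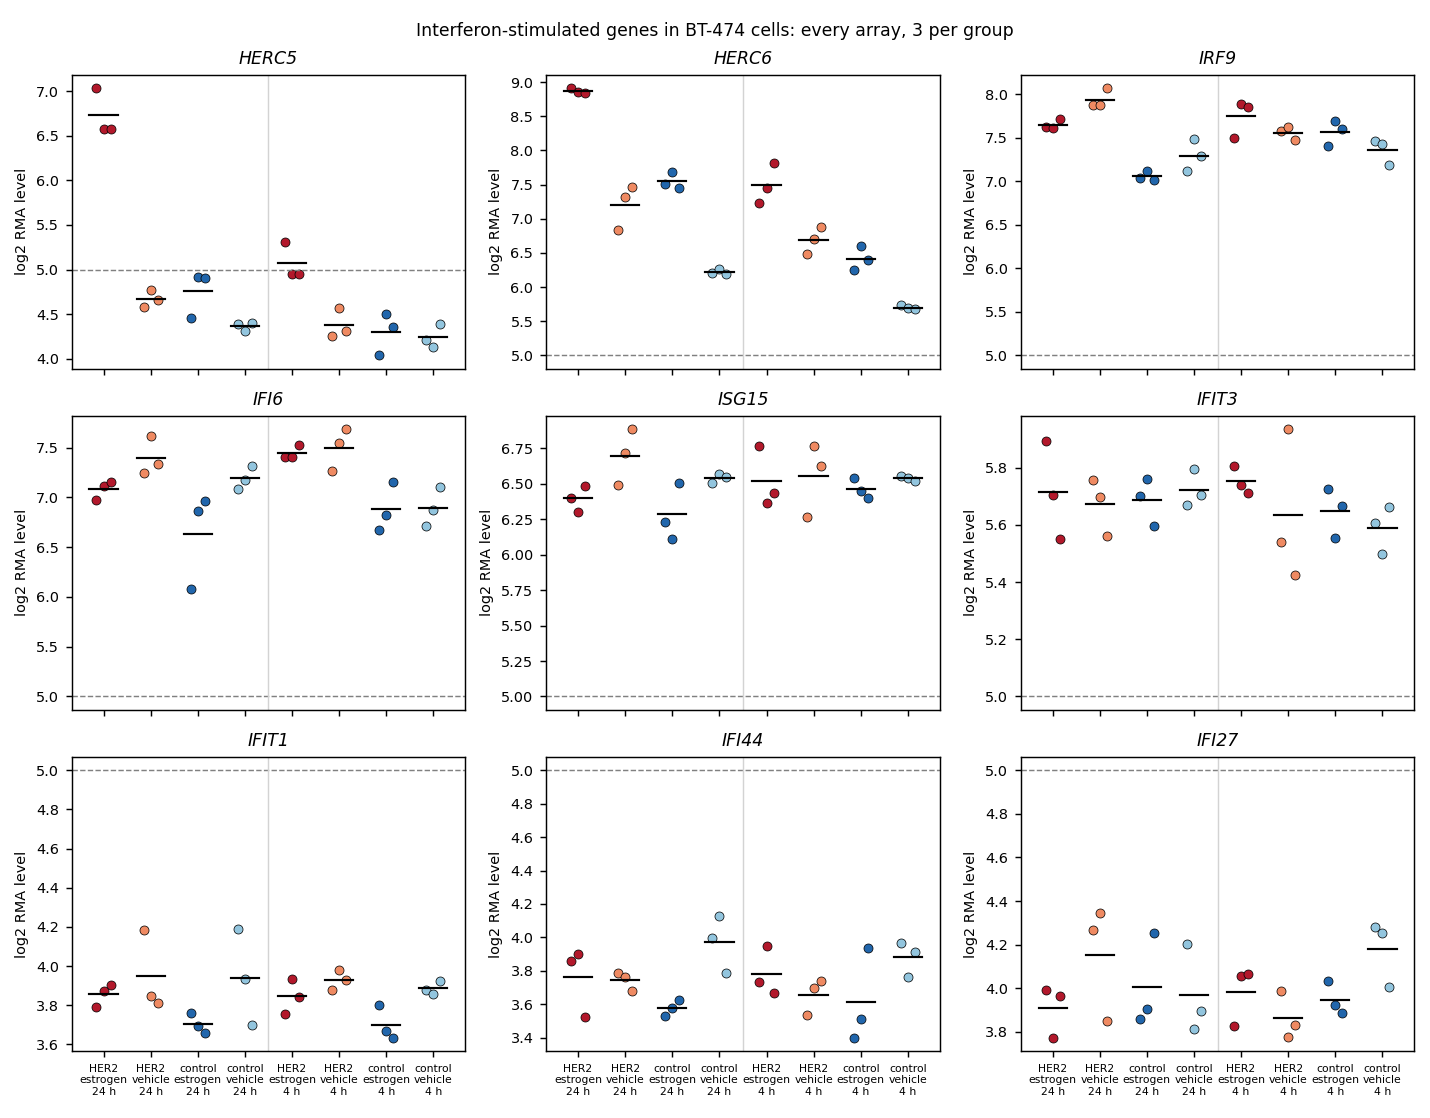
Log2 RMA level (vertical axis, own range in each panel) of the 9 genes in the 8 groups (horizontal axis); points are the 3 arrays of a group, black bars their mean, and the dashed line is the log2 level of 5. HERC5 and HERC6 were highest with HER2 siRNA and estrogen at 24 h, while IFIT1, IFI44 and IFI27 lay under the line on every array.

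HERC5 at 24 h had 7.04, 6.58 and 6.58 with HER2 siRNA and estrogen, and 4.58, 4.77 and 4.66 with HER2 siRNA and vehicle. With control siRNA at 24 h it had 4.45, 4.92 and 4.91 with estrogen and 4.39, 4.32 and 4.41 with vehicle. The HER2 siRNA arrays with estrogen thus stood apart from all others, and none of the other groups reached 5. At 4 h the levels were 5.31, 4.95 and 4.95 with HER2 siRNA and estrogen, 4.26, 4.57 and 4.31 with HER2 siRNA and vehicle, 4.04, 4.51 and 4.36 with control siRNA and estrogen, and 4.20, 4.13 and 4.39 with control siRNA and vehicle. The same combination was highest at 4 h, by a smaller margin. In order of mean level, HER2 siRNA with estrogen at 24 h (6.73 ± 0.26, SD, n = 3) and at 4 h (5.07 ± 0.21) did not overlap with their neighbours. Control siRNA with estrogen (4.76 ± 0.27) and HER2 siRNA with vehicle (4.67 ± 0.10), both at 24 h, overlapped each other, and the other 4 groups (means 4.24 to 4.38) overlapped among themselves. The lowest array of control siRNA with estrogen at 24 h (4.45) also lay within 2 of those at 4 h. These were HER2 siRNA with vehicle (up to 4.57) and control siRNA with estrogen (up to 4.51).

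HERC6 was higher with either treatment alone and highest with both. At 24 h it had 8.92, 8.85 and 8.85 with HER2 siRNA and estrogen, 6.84, 7.31 and 7.46 with HER2 siRNA and vehicle, 7.51, 7.68 and 7.44 with control siRNA and estrogen, and 6.21, 6.26 and 6.19 with control siRNA and vehicle. Cells with both treatments were highest and cells with neither were lowest, and the groups given either treatment alone lay between them, overlapping each other. At 4 h it had 7.24, 7.45 and 7.81 with HER2 siRNA and estrogen, 6.48, 6.70 and 6.88 with HER2 siRNA and vehicle, 6.25, 6.60 and 6.39 with control siRNA and estrogen, and 5.73, 5.69 and 5.68 with control siRNA and vehicle. The groups with both treatments and with neither were again highest and lowest, and the 2 between them again overlapped. Of the 8 groups, 8.87 ± 0.04 (HER2 siRNA with estrogen, 24 h) and 5.70 ± 0.03 (control siRNA with vehicle, 4 h) stood apart from their neighbours at the 2 ends, and the 6 between them formed a chain of overlapping ranges.

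Estrogen raised HERC6 in all 4 settings and HERC5 in those with HER2 siRNA. Differences and tests were from limma with 1 mean per group over the 24 arrays, and p-values were adjusted over the 14335 genes tested (level of 5 or more on at least 3 arrays), with an adjusted p under 0.05 counted as called. HERC6 was higher with estrogen by 1.66 ± 0.14 (difference in log2 level ± SE) with HER2 siRNA at 24 h, or 3.17-fold (95% interval 2.58 to 3.89, adjusted p = 5e-08). With control siRNA at 24 h the difference was 1.32 ± 0.14 (adjusted p = 2.15e-06), at 4 h with HER2 siRNA 0.81 ± 0.14 (adjusted p = 0.0031), and at 4 h with control siRNA 0.71 ± 0.14 (adjusted p = 0.0209). In none of the 4 settings did the estrogen and vehicle arrays overlap. The call at 4 h with HER2 siRNA was lost when the probe sets of HERC6 were averaged (0.36, adjusted p = 0.0512), the second of which was near background on every array, and when the groups compared were fitted alone (adjusted p = 0.158). The call at 4 h with control siRNA was lost when they were averaged (0.37, adjusted p = 0.0583) and without 5 of the 6 arrays compared, in turn, with adjusted p up to 0.214. The values are from whole dishes, so more cells expressing the gene and more RNA per cell cannot be told apart.

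HERC5 was higher with estrogen by 2.06 ± 0.15 with HER2 siRNA at 24 h (adjusted p = 3.68e-09), and by 0.69 ± 0.15 with HER2 siRNA at 4 h (adjusted p = 0.021). With control siRNA the differences were 0.39 ± 0.15 at 24 h (adjusted p = 0.0881) and 0.06 ± 0.15 at 4 h (adjusted p = 1). Of these groups only HER2 siRNA with estrogen reached 5 on average, at both times, so the others are bounds rather than measured levels and no fold is given against them. The 24 h mean of 6.73 was 3.32-fold above the level of 5, and the 4 h mean 1.05-fold, which is the part of each difference that lies above background. The 24 h control siRNA arrays did not overlap. One array, the first of control siRNA with estrogen at 24 h, decided that call: without it the difference was 0.54 (adjusted p = 0.022). It is 1 of 3 arrays whose label numbers stand apart from the other arrays, together with the first of control siRNA with vehicle at 24 h and the first of HER2 siRNA with estrogen at 4 h. The 4 h call with HER2 siRNA was lost without the last of these (0.57, adjusted p = 0.164), without all 3 (adjusted p = 0.114) and without the first (0.63, adjusted p = 0.122) or the third (0.65, adjusted p = 0.123) with vehicle.

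None of the other 4 tested members was called higher with estrogen. IFI6, a small membrane protein known to limit cell death and flavivirus replication, had 6.97, 7.12 and 7.16 with HER2 siRNA and estrogen at 24 h, and 7.24, 7.62 and 7.34 with HER2 siRNA and vehicle. With control siRNA at 24 h it had 6.08, 6.86 and 6.96 with estrogen and 7.09, 7.17 and 7.32 with vehicle. In both pairs every estrogen array lay below every vehicle array. The difference was called with control siRNA (-0.56 ± 0.17, adjusted p = 0.0364) and not with HER2 siRNA (-0.31 ± 0.17, 95% interval -0.68 to 0.05, adjusted p = 0.424), and the difference between these differences was 0.24 ± 0.25 (adjusted p = 0.982). The call with control siRNA rested on the array at 6.08, which is 1 of the 3 numbered apart: without it the difference was -0.28 (adjusted p = 0.242) and without all 3 it was -0.33 (adjusted p = 0.244), and it was also lost without any of the 3 vehicle arrays (adjusted p 0.0573 to 0.124). At 4 h the estrogen differences of IFI6 were -0.06 ± 0.17 with HER2 siRNA and -0.02 ± 0.17 with control siRNA.

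ISG15, the modifier itself, at 24 h had 6.40, 6.30 and 6.49 with HER2 siRNA and estrogen and 6.49, 6.72 and 6.89 with HER2 siRNA and vehicle. With control siRNA at 24 h it had 6.23, 6.11 and 6.51 with estrogen and 6.51, 6.57 and 6.55 with vehicle. The pair with HER2 siRNA did not overlap and the other did, and neither difference passed the test (-0.30 ± 0.13 with HER2 siRNA, adjusted p = 0.206, and -0.26 ± 0.13 with control siRNA, adjusted p = 0.198). IRF9, the DNA-binding subunit of the STAT complex, differed by -0.29 ± 0.11 with HER2 siRNA (adjusted p = 0.155) and by -0.24 ± 0.11 with control siRNA (adjusted p = 0.171) at 24 h. At 4 h it differed by 0.19 ± 0.11 with HER2 siRNA and by 0.20 ± 0.11 with control siRNA (adjusted p = 0.749 and 1), and the signs at the 2 times were opposite. IFIT3, which binds and stabilises IFIT1, ranged from 5.42 to 5.94 over all 24 arrays, and its estrogen differences ran from -0.04 to 0.12.

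Counted over the 6 tested members, estrogen against vehicle gave 2 calls with HER2 siRNA at 24 h, both higher (HERC5 and HERC6), where 6.17% of all tested genes were called. With control siRNA at 24 h, HERC6 was higher and IFI6 lower, against 13.5% of all genes. At 4 h there were 2 with HER2 siRNA (HERC5 and HERC6, against 0.698% of genes) and 1 with control siRNA (HERC6, against 0.342% of genes). The median difference of the 6 members at 24 h was -0.12 with HER2 siRNA and -0.14 with control siRNA, beside 0.00 and -0.01 over all tested genes. Since HERC5 was tested only because of the groups in which it is high, these counts are a description.

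**Figure D2:**
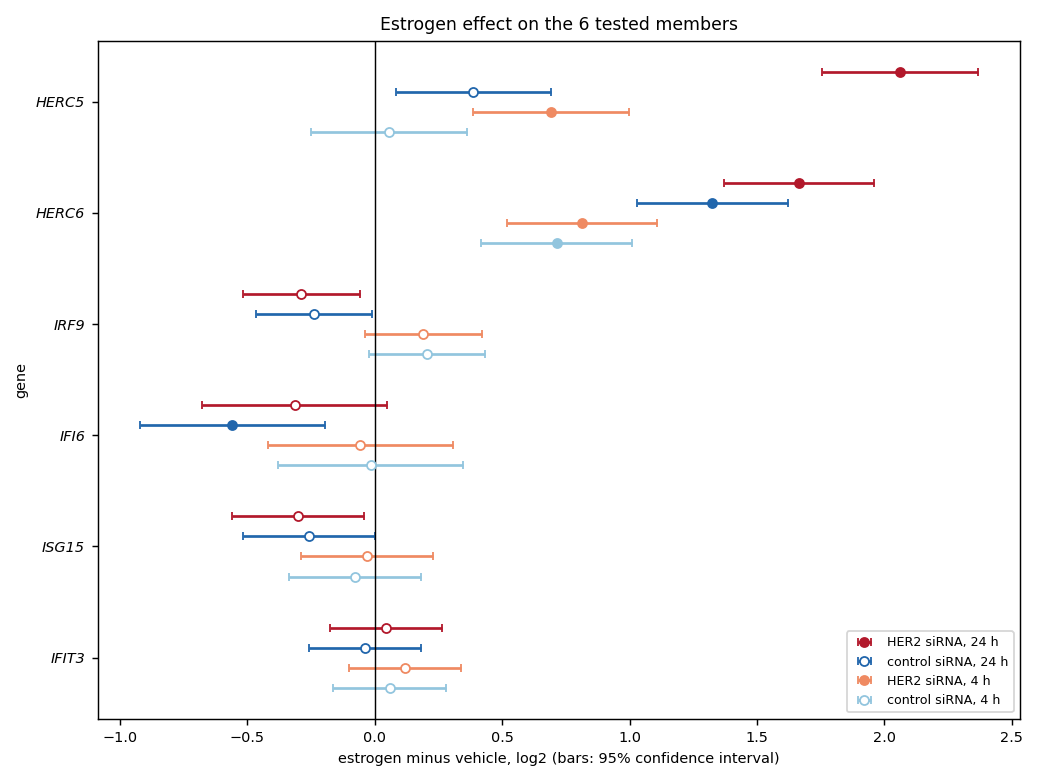
Difference in log2 level, estrogen minus vehicle (horizontal axis, bars are 95% confidence intervals), for the 6 tested members (vertical axis) in 4 settings. Filled points passed an adjusted p of 0.05: HERC6 in all 4 settings, HERC5 in the 2 with HER2 siRNA, and IFI6, downwards, with control siRNA at 24 h.

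Whether the response to estrogen differed between HER2 siRNA and control siRNA was tested as the difference between the 2 estrogen differences. At 24 h that of HERC5 was larger with HER2 siRNA by 1.67 ± 0.21 (adjusted p = 0.000543). The other 3 groups of this comparison averaged 4.37 to 4.76, near background, and HERC5 was tested only because the group with both treatments was high, so the size is tied to levels that are not well measured. Without a filter the adjusted p was 0.000476, and with a floor of 7 HERC5 is not tested. HERC5 was 1 of 9 genes called, 0.0628% of those tested. That of HERC6, 0.34 ± 0.20 (95% interval -0.08 to 0.76), did not pass (adjusted p = 0.898). At 4 h no member and 0% of all genes were called (limma, 403 genes at an unadjusted p under 0.05), and the value of HERC5 was 0.63 ± 0.21 (unadjusted p = 0.00606, adjusted p = 0.999).

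The estrogen difference also changed with time. Averaged over both siRNAs, it was larger at 24 h than at 4 h by 0.85 ± 0.15 for HERC5 (adjusted p = 0.00154) and by 0.73 ± 0.14 for HERC6 (adjusted p = 0.00405). For IRF9 the difference between the times had the opposite sign (24 h minus 4 h, -0.46 ± 0.11, adjusted p = 0.0188), a call lost with the GAPDH covariate described below (-0.42, adjusted p = 0.0544). A probe set that IRF9 shares with the gene RNF31 gave -0.04 ± 0.12 (adjusted p = 0.976). HERC5, HERC6 and IRF9 were 3 of the 6 tested members, where 3.49% of all genes were called. As HERC5 entered the test only through the groups given both treatments, its call and its place in this count are a description.

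HER2 siRNA lowered its own target in every setting. ERBB2 lay between 11.86 and 12.69 on the 12 HER2 siRNA arrays and between 13.39 and 13.94 on the 12 control siRNA arrays, a mean difference of -1.34 ± 0.06 (adjusted p = 1.11e-14). The arrays of the 2 siRNAs did not overlap. ERBB2 thus stayed well above background. The gap between group means was widest with vehicle at 4 h (12.10 with HER2 siRNA, 13.66 with control siRNA). It was narrowest with estrogen at 24 h (12.33 and 13.42). Whether this bears on the siRNA differences between settings was not tested.

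Averaged over the 4 combinations of hormone and time, 4 of the 6 tested members were higher with HER2 siRNA and none was lower, where 59.2% of all tested genes were called and 30.1% were called higher. HERC6 was higher by 1.10 ± 0.07 (adjusted p = 1.32e-11), HERC5 by 0.79 ± 0.07 (adjusted p = 4.28e-09), IFI6 by 0.45 ± 0.09 (adjusted p = 0.000105) and IRF9 by 0.40 ± 0.05 (adjusted p = 1.4e-06). ISG15 differed by 0.09 ± 0.06 (95% interval -0.04 to 0.22, adjusted p = 0.254) and IFIT3 by 0.03 ± 0.05 (95% interval -0.08 to 0.14, adjusted p = 0.646). The modifier and the IFIT protein were thus not called while HERC6 was. HERC5 was tested only through the groups given both treatments, so its call and its place in the count are a description.

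A sign of RNA quality moved with the siRNA: the 3' minus 5' signal of the GAPDH control probes was 0.443 ± 0.060 (SD, n = 12) on HER2 siRNA arrays and 0.305 ± 0.066 on control siRNA arrays. With this signal as a covariate the 4 members kept their calls, at 1.05 for HERC6, 0.71 for HERC5, 0.46 for IFI6 and 0.32 for IRF9 (highest adjusted p 0.0136). All 9 luminal epithelial markers were above 5 on every array. Of 5 leukocyte markers, PTPRC, CD14 and NKG7 were at 5 or more on no array, CD3E on 24 (mean 5.28) and LYZ on 8 (mean 4.84), and LYZ was higher with HER2 siRNA by 1.08 ± 0.17. The 5 leukocyte markers summed to 20.99 to 22.8 with HER2 siRNA and to 20.5 to 22.0 with control siRNA, and the 4 endothelial markers (CDH5 at 5 or more on no array, TEK on 21, PECAM1 and VWF on 24) to 20.9 to 21.8 with HER2 siRNA and to 21.7 to 22.8 with control siRNA. The plasmacytoid dendritic markers, a cell type that makes much interferon, summed to 14.3 to 15.4 with HER2 siRNA and to 14.3 to 15.3 with control siRNA. Of these, CLEC4C was at 5 or more on no array, LILRA4 on 23 (mean 5.37) and IL3RA on 24 (mean 5.96). The 4 fibroblast markers (COL1A1 and DCN at 5 or more on 24 arrays, COL1A2 and PDGFRA on 6) summed to 24.7 to 25.7 with HER2 siRNA and to 24.7 to 25.5 with control siRNA. Their part in the siRNA differences was not tested.

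The 4 settings differed among the genes. HERC6 was higher with HER2 siRNA in each, by 1.33 ± 0.14 with estrogen at 24 h (adjusted p = 1.6e-07), 0.99 ± 0.14 with vehicle at 24 h (adjusted p = 8.79e-06), 1.09 ± 0.14 with estrogen at 4 h (adjusted p = 3.93e-06) and 0.99 ± 0.14 with vehicle at 4 h (adjusted p = 1.29e-05). HERC5 was higher in the presence of estrogen, by 1.97 ± 0.15 at 24 h (adjusted p = 1.06e-09) and by 0.77 ± 0.15 at 4 h (adjusted p = 0.000311), against control siRNA groups that were near background. In vehicle its differences were 0.30 ± 0.15 at 24 h (adjusted p = 0.112) and 0.13 ± 0.15 at 4 h (adjusted p = 0.538). For HERC6 the siRNA difference was therefore present with and without estrogen.

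IRF9 at 24 h had 7.63, 7.61 and 7.72 with HER2 siRNA and estrogen, against 7.03, 7.12 and 7.02 with control siRNA and estrogen. In vehicle at 24 h it had 7.87, 7.87 and 8.07 with HER2 siRNA, against 7.12, 7.49 and 7.29 with control siRNA. Neither pair overlapped, and the differences were 0.59 ± 0.11 with estrogen (adjusted p = 0.00015) and 0.64 ± 0.11 with vehicle (adjusted p = 6.57e-05). At 4 h IRF9 had 7.50, 7.89 and 7.85 with HER2 siRNA and estrogen, against 7.40, 7.70 and 7.60 with control siRNA and estrogen. In vehicle at 4 h it had 7.58, 7.62 and 7.47 with HER2 siRNA, against 7.46, 7.43 and 7.19 with control siRNA. The estrogen pair overlapped, the vehicle pair narrowly did not, and neither difference was called (0.18 ± 0.11 with estrogen, adjusted p = 0.225, and 0.20 ± 0.11 with vehicle, adjusted p = 0.189). Without the first HER2 siRNA array with estrogen, also numbered apart, the 4 h difference was 0.31 (adjusted p = 0.0365).

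The siRNA difference was larger at 24 h than at 4 h by 0.43 ± 0.11 for IRF9 (adjusted p = 0.0379). For HERC5 it was larger by 0.68 ± 0.15 (adjusted p = 0.0137). These were 2 of the 6 tested members, where 2.95% of all genes were called. The HERC5 call and its place in this count are a description, since HERC5 was tested only because it was high with both treatments. The IRF9 call was fragile: it missed the threshold without 13 of the 24 arrays, each left out in turn, at values of 0.37 to 0.44 (adjusted p up to 0.0716). A second probe set, shared between IRF9 and its chromosomal neighbour RNF31, was also higher with HER2 siRNA (0.31 ± 0.06, adjusted p = 0.00015). The own probe set of RNF31 was higher too (0.26, adjusted p = 0.000805), so the shared one cannot tell IRF9 from RNF31. The shared one was called with estrogen at 24 h (0.31, adjusted p = 0.0446) and 4 h (0.40, adjusted p = 0.0143). In vehicle it was not called at 24 h (0.24, adjusted p = 0.125) or 4 h (0.27, adjusted p = 0.106). The change of its siRNA difference with time was -0.06 ± 0.12 (SE, adjusted p = 0.885).

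IFI6 at 4 h had 7.40, 7.40 and 7.53 with HER2 siRNA and estrogen, against 6.67, 6.82 and 7.15 with control siRNA and estrogen. In vehicle at 4 h it had 7.27, 7.55 and 7.69 with HER2 siRNA, against 6.72, 6.88 and 7.10 with control siRNA. The groups were separate in both pairs, with differences of 0.56 ± 0.17 with estrogen (adjusted p = 0.0159) and 0.60 ± 0.17 with vehicle (adjusted p = 0.0101). At 24 h the differences were 0.45 ± 0.17 with estrogen (adjusted p = 0.043) and 0.21 ± 0.17 with vehicle (adjusted p = 0.38). The 24 h call with estrogen rested on the control siRNA array at 6.08 described above: without it the difference was 0.17 (adjusted p = 0.382). It was also lost without any of the 3 HER2 siRNA arrays (adjusted p 0.0502 to 0.115). The 4 h call with estrogen was lost without any of 3 arrays (adjusted p 0.0520 to 0.0829) and with the GAPDH covariate (adjusted p = 0.0676), and that with vehicle without either of 2 (adjusted p 0.0538 and 0.0579).

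By setting, HER2 siRNA against control siRNA gave 4 of 6 members called at 24 h with estrogen (42% of all genes called, 21.5% higher) and 2 of 6 at 24 h with vehicle (41.5% called, 19.7% higher). At 4 h it gave 3 of 6 with estrogen (34.1% called, 16.8% higher) and 2 of 6 with vehicle (34.2% called, 16.5% higher). All these calls were higher with HER2 siRNA. The counts with estrogen include HERC5, which was tested only because it was high with both treatments. Against so wide a background a call by itself says little about these genes.

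**Figure D3:**
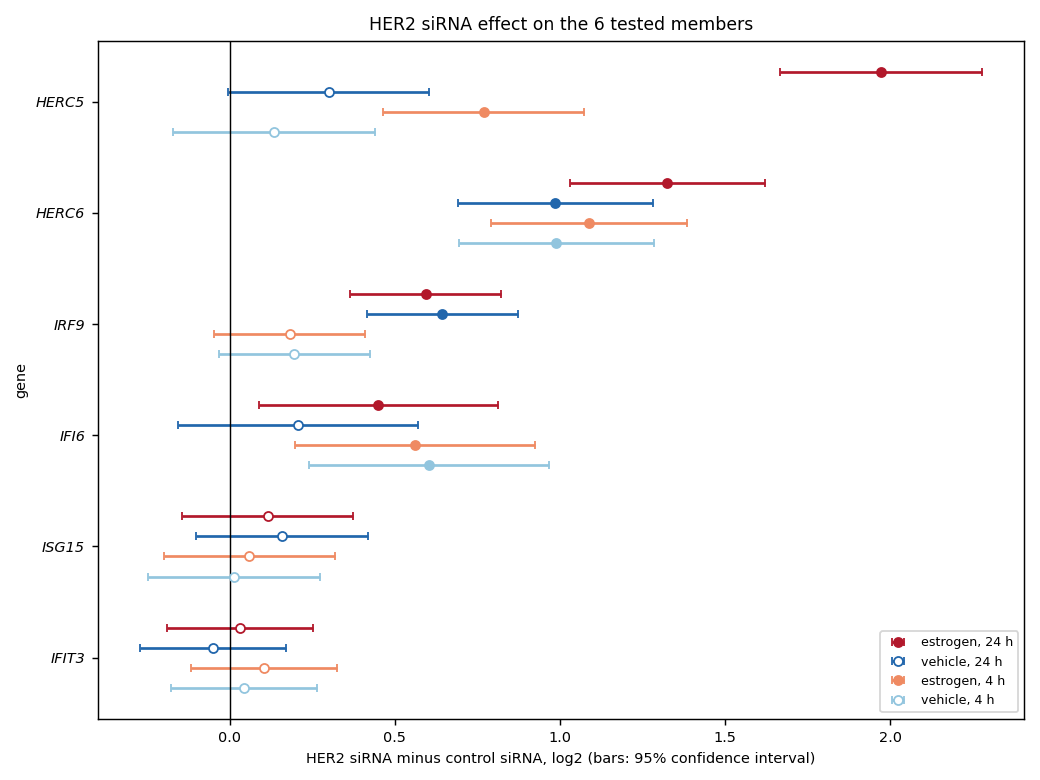
Difference in log2 level, HER2 siRNA minus control siRNA (horizontal axis, bars are 95% confidence intervals), for the 6 tested members (vertical axis) with estrogen or vehicle at 24 h and 4 h. Filled points passed an adjusted p of 0.05: HERC6 in all 4 settings, HERC5 in the 2 with estrogen, IRF9 in the 2 at 24 h, and IFI6 in all but vehicle at 24 h.

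Time alone also separated the genes. Between 24 h and 4 h, HERC6 was higher at 24 h by 1.37 ± 0.14 with HER2 siRNA and estrogen (adjusted p = 2.36e-06), by 0.52 ± 0.14 with HER2 siRNA and vehicle (adjusted p = 0.0327), and by 1.13 ± 0.14 with control siRNA and estrogen (adjusted p = 5.84e-05). With control siRNA and vehicle its difference was 0.52 ± 0.14 (adjusted p = 0.091), which passed when replicates were blocked by their number (adjusted p = 0.0274). HERC5 was higher at 24 h with HER2 siRNA and estrogen, by 1.66 ± 0.15 (adjusted p = 3.52e-07), and not called elsewhere. Since HERC5 entered the test only through that combination, this call is a description.

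On its own probe set, IRF9 moved in opposite directions over time. It was higher at 24 h with HER2 siRNA and vehicle (0.38 ± 0.11, adjusted p = 0.0405) and lower with control siRNA and estrogen (-0.51 ± 0.11, adjusted p = 0.00883). The probe set shared with RNF31 showed neither move (-0.06 ± 0.12, adjusted p = 0.844, and -0.04 ± 0.12, adjusted p = 0.923). Without the second control siRNA array with estrogen at 4 h, the fall on the own probe set of IRF9 was -0.44 (adjusted p = 0.0554). Without the first control siRNA array with estrogen at 24 h, HERC5 was called in the same comparison (0.61, adjusted p = 0.0187). In the vehicle comparison with HER2 siRNA, leaving out any of the 6 arrays left no more than 1 of its 2 calls (adjusted p of those lost 0.0508 to 0.203). In all, 2 of 6 members were called with HER2 siRNA and estrogen (6.21% of all genes) and 2 with HER2 siRNA and vehicle (6.46%). With control siRNA, 2 were called with estrogen (5.96%) and none with vehicle (0.781%, limma, 2058 genes at an unadjusted p under 0.05). The count with HER2 siRNA and estrogen includes HERC5, which was tested only because it was high in that combination.

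HERC5 and HERC6 lie next to each other on chromosome 4, and PPM1K, a mitochondrial phosphatase of branched-chain amino acid breakdown, is the next gene beyond HERC6. The comparison with neighbours was chosen after the values had been seen. Of the 10 other protein-coding genes within 5 places of either HERC gene, 3 were tested. PPM1K averaged 10.78 ± 0.13 with HER2 siRNA and estrogen at 24 h and 8.73 ± 0.39 with HER2 siRNA and vehicle (SD, n = 3 each). With control siRNA it averaged 8.97 ± 0.14 with estrogen and 7.18 ± 0.40 with vehicle. PPM1K, like HERC6, was higher with either treatment and highest with both.

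Its estrogen difference was 2.04 ± 0.23 with HER2 siRNA at 24 h (adjusted p = 3.95e-06), 1.79 ± 0.23 with control siRNA at 24 h, 1.93 ± 0.23 with HER2 siRNA at 4 h and 1.80 ± 0.23 with control siRNA at 4 h (highest adjusted p 0.000145). It was already at this size at 4 h (24 h minus 4 h, 0.05 ± 0.23, adjusted p = 0.962), while those of HERC6 and HERC5 were larger at 24 h. On the other side of HERC5, NAP1L5 was not called for estrogen in any setting, and FAM13A was lower with estrogen and control siRNA at 24 h (-0.65 ± 0.11, adjusted p = 0.000483). With HER2 siRNA at 24 h, 2 of the 4 tested neighbours of HERC5 and 2 of the 3 of HERC6 were higher with estrogen. These counts include PPM1K in both and each HERC gene as neighbour of the other, and HERC5 was tested only because it was high. Of the 3 tested neighbours outside the HERC pair, only PPM1K was higher. For the other members, 0 of 7 neighbours of IFI6, 0 of 6 of IFIT3, 1 of 7 of ISG15 and 1 of 5 of IRF9 were higher. Over all tested genes 6.17% were called here, and 69.3% of those were higher.

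**Figure D4:**
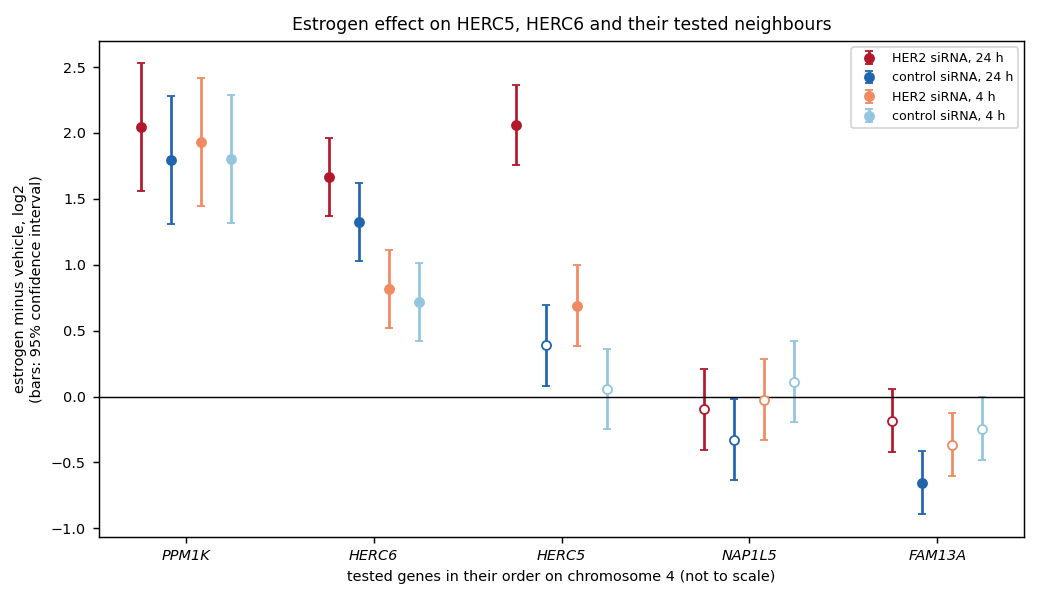
Difference in log2 level, estrogen minus vehicle (vertical axis, bars are 95% confidence intervals), for HERC5, HERC6 and their 3 tested neighbours in chromosomal order (horizontal axis, not to scale), in 4 settings. Filled points passed an adjusted p of 0.05; PPM1K and HERC6 were higher in all 4 settings, and NAP1L5 in none.

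The rest of the interferon pathway held genes called in both directions. Of 145 further pathway genes, 134 had a probe set of their own and 96 were tested. With HER2 siRNA, averaged over the 4 settings, 42 were higher and 20 lower. That is 64.6% called against 59.2% of all genes, and 43.8% called higher against 30.1%, with a median difference of 0.09 against 0.00. Of the 21 interferon ligands listed, 18 had a probe set, and 17 of these were under 5 on every array. IFNA17, the exception, averaged 5.14 and was not called.

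Among receptors, 2 of 6 were higher (IL10RB, the subunit shared with interleukin-10 receptors, by 0.51 ± 0.06, and IFNGR2 by 0.23 ± 0.05) and IFNGR1 was lower (-0.16 ± 0.06). The kinases JAK1 (0.41 ± 0.05) and TYK2 (0.36 ± 0.05) were both higher. Of 7 other interferon regulatory factors 4 were higher, with IRF2 at 0.37 ± 0.06, IRF1 at 0.28 ± 0.05 and IRF7 at 0.18 ± 0.04, and none was lower. Among 16 nucleic acid sensors and their adaptors, 6 were higher, such as the endosomal RNA receptor TLR3 (0.84 ± 0.11, near background at a mean of 4.74) and the cytosolic receptors DHX58 (0.35 ± 0.05) and RIGI (0.30 ± 0.05). Another 4 were lower, with TRAF3 at -0.34 ± 0.06, TBK1 at -0.11 ± 0.04 and MYD88 at -0.11 ± 0.04.

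Of the 3 tested enzymes that handle ISG15, 2 were called with HER2 siRNA, both lower, where 59.2% of all genes were called. They were USP18, the protease that removes ISG15 and dampens receptor signalling (-0.65 ± 0.05, adjusted p = 6.76e-10), and the ligase TRIM25 (-0.11 ± 0.04, adjusted p = 0.0322). The other, UBE2L6, was not called (-0.05, adjusted p = 0.415). So small a count beside so wide a background says little about these enzymes. USP18 is commonly counted as interferon-induced too. HERC1 (0.22 ± 0.08) and HERC2 (0.13 ± 0.05), the large members of the HERC family, were higher.

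Of 41 other interferon-stimulated genes 17 were higher and 10 lower. The GTPase GBP2 (0.91 ± 0.05), the nuclear body protein SP100 (0.75 ± 0.05) and the membrane protein IFITM3 (0.50 ± 0.04) had the smallest p-values upwards. Downwards these were the nucleotide kinase CMPK2 (-1.06 ± 0.06), PLSCR1 (-0.55 ± 0.04) and TRIM14 (-1.19 ± 0.08). Of 13 antigen presentation genes 7 were higher, among them HLA-E (0.64 ± 0.04), the immunoproteasome subunit PSMB10 (0.47 ± 0.05) and the peptide transporter TAP1 (0.32 ± 0.04), and 2 lower (HLA-C, -0.15 ± 0.04, and TAP2, -0.23 ± 0.08). Of 10 negative regulators 5 were higher, with the phosphatases PTPN6 (0.59 ± 0.04) and PTPN2 (0.27 ± 0.04) and PIAS4 (0.29 ± 0.05), and 3 lower (USP18, PIAS3 at -0.48 ± 0.04 and PTPN11 at -0.40 ± 0.05).

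**Figure D5:**
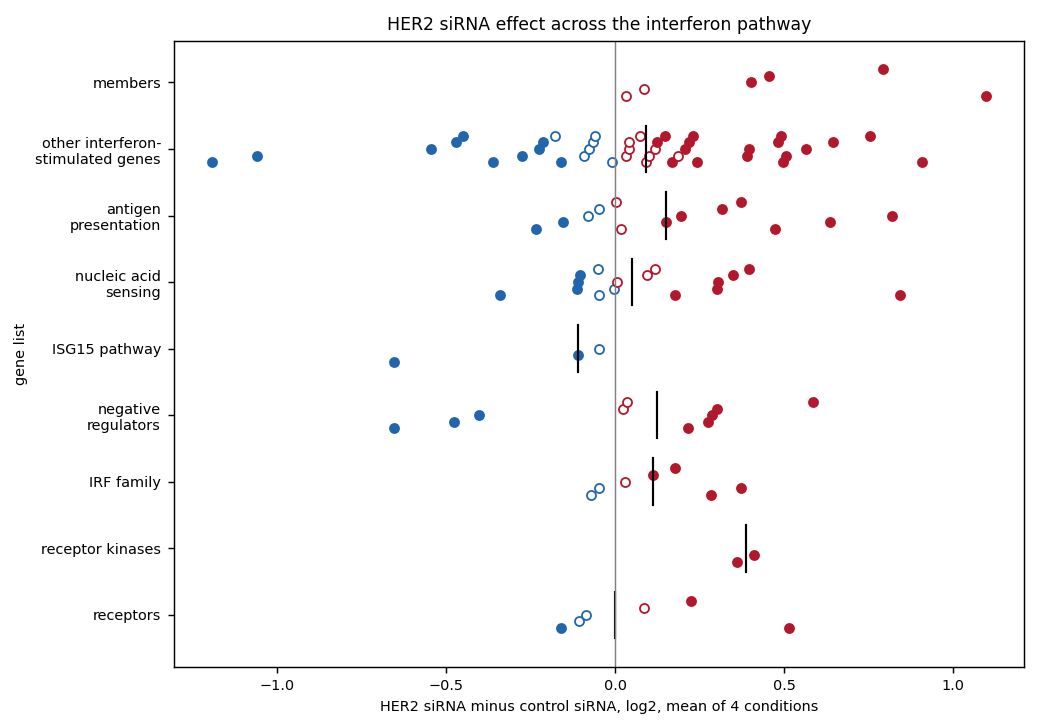
Difference in log2 level, HER2 siRNA minus control siRNA averaged over 4 settings (horizontal axis), for each tested gene of the interferon lists (vertical axis); each point is a gene, filled where it passed an adjusted p of 0.05, and black bars are list medians (none drawn for the members). Called genes lie on both sides of 0 in 5 of the 8 lists below the members, and run from -1.19 (TRIM14) to 1.10 (HERC6).

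Estrogen called few of these 96 genes. With HER2 siRNA at 24 h 1 was higher and 1 lower, 2.08% against 6.17% of all genes. IFIH1, the cytosolic sensor of long double-stranded RNA, was the one higher: it averaged 7.73 ± 0.24 with HER2 siRNA and estrogen, against 6.72 ± 0.17 with HER2 siRNA and vehicle (1.02 ± 0.14, adjusted p = 5.12e-05). GBP2 was the one lower (-0.32 ± 0.09, adjusted p = 0.0363). With control siRNA at 24 h 3 were higher and 9 lower, 12.5% against 13.5% of all genes. IFIH1 (0.48 ± 0.14, adjusted p = 0.025) was again higher and GBP2 (-0.64 ± 0.09, adjusted p = 5.41e-05) again lower. The difference between the 2 estrogen differences of IFIH1, 0.53 ± 0.20, was not called (adjusted p = 0.628). These comparisons share their arrays in part with the siRNA comparisons, so the counts are not independent.

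By a fixed rule the genes most like the mean of the 6 tested members were named. Over the 8 group means these were COBL (Pearson r 0.995), NINJ1 (0.981), STARD5 (0.978), ITGA2 (0.977) and SLC2A12 (0.974). Over these group means the member mean followed HERC6 (0.93) and HERC5 (0.91) far more than IFIT3 (0.60), IRF9 (0.55), IFI6 (0.36) or ISG15 (-0.08). There it describes mostly the HERC pair, and it includes HERC5, which was tested only because it was high with both treatments. Over the 24 deviations from group means the nearest genes were ZSCAN26 (0.841), FZD3 (0.830), UGGT2 (0.811), PEAK1 (0.799) and ZDHHC14 (0.791). In these deviations the member mean followed HERC5 (0.73), IFI6 (0.71), HERC6 (0.59) and ISG15 (0.51) more than IRF9 (0.28) or IFIT3 (0.23). The points share arrays and normalisation, and the values are descriptions.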

How the data were processed

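Gene expression was measured on 24 Affymetrix HG-U133 Plus 2.0 arrays. The authors deposited log2 levels for each probe set, made with RMA per the submitters' processing notes; its version was not given in the sources used here. RMA equalises the distributions of the arrays, so a shift shared by most genes would not be seen. Array medians were 5.28 to 5.36. The number of arrays limits the precision.

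Of 54675 probe sets, 41091 had 1 gene symbol, 1801 several, 11721 none, and 62 were controls; symbols were updated through Entrez. Each gene was represented by its brightest probe set on average. Genes at a log2 level of 5 or more on at least 3 arrays (14335) were fitted with limma 3.58.1 (R 4.3.3), 1 mean per group, and 2-sided p-values were adjusted by the Benjamini-Hochberg method; intervals are 95%. The fit was tested on simulated data. One array of HER2 siRNA with estrogen was placed at 4 h by its title, though another label said 24 h. Replicate numbers were shared by the groups. The label numbers of the second replicates ran together across all groups, as did those of the third. All 3 pairs correlated by over 0.1 in 5 of 12 comparisons, a cut that cannot show that pairing was absent in the others. The main fit did not use the replicate number.

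Named genes were the 9 members, ERBB2, per list up to 3 genes each way with the smallest adjusted p for the siRNA (2 elsewhere), and the 5 most like the members' mean. The members and lists were chosen with earlier results of these data known. Alternatives were other filters, probe set rules, a replicate block, array weights, only the groups compared, a GAPDH covariate and leaving out arrays. Python 3.11.15, pandas 2.3.3 and matplotlib 3.10.9 drew the figures.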

Additional observations from a re-analysis of the deposited data

Results flagged for a closer look

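The values below stood out because the effect of a treatment differed between siRNAs or between times by a test of the difference itself. The estrogen effect on HERC5 at 24 h was larger with HER2 siRNA than with control siRNA by 1.67. HERC5 was tested only through the groups given both treatments, the other groups being near background, and with a floor of 7 it is not tested. The HER2 siRNA effect was larger at 24 h than at 4 h by 0.68 for HERC5 and by 0.43 for IRF9. The estrogen effect was larger at 24 h than at 4 h by 0.85 for HERC5 and by 0.73 for HERC6, while for IRF9 the 24 h effect minus the 4 h effect was -0.46. On the probe set that IRF9 shares with RNF31, the change with time was -0.06 for HER2 siRNA and -0.04 for estrogen, and neither was called.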

How the results depend on the processing

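Over 2146 values of single members under the alternatives, 88 changed their side of the threshold and none that was called changed direction. The counts of called members that moved by over 1.5 times follow. For estrogen at 24 h with HER2 siRNA the count was 2, and 1 with a floor of 7, under which HERC5 is not tested. With that floor it was also 1 instead of 2 for estrogen with HER2 siRNA at 4 h, for time with HER2 siRNA and estrogen and for the siRNA effect between times, and 0 instead of 1 for the difference of estrogen effects at 24 h. Without a filter it was 1 instead of 2 for time with HER2 siRNA and vehicle and for the siRNA effect between times. Estrogen with control siRNA at 24 h gave 1 instead of 2 with every probe set, with only the groups compared and with the GAPDH covariate. Estrogen with control siRNA at 4 h gave 0 instead of 1 with the mean of probe sets. Estrogen with HER2 siRNA at 4 h gave 1 instead of 2 with that mean, with array weights and without the 3 arrays numbered apart in the labels, and 0 with only the groups compared. Time with HER2 siRNA and vehicle gave 1 instead of 2 with the mean of probe sets, every probe set or array weights, and 0 with only the groups compared or the GAPDH covariate. Time with control siRNA and vehicle gave 1 instead of 0 with only the groups compared and with array weights. The siRNA effect between times gave 1 instead of 2 with every probe set and without the 3 arrays. The cause was not tested. With the replicate number as a block, time with control siRNA and vehicle gave 1 call (HERC6) instead of 0, and the block changed no other call of a member. Over all genes, the block raised the number called for time with control siRNA and vehicle from 112 to 448.

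Leaving out 1 array at a time, counts ranged from 1 to 2 for estrogen with control siRNA at 24 h, estrogen with HER2 siRNA at 4 h, HER2 siRNA in vehicle at 4 h and the siRNA effect between times. They ranged from 0 to 1 for estrogen with control siRNA at 4 h and time with HER2 siRNA and vehicle, and from 1 to 3 for time with control siRNA and estrogen. Levels near background limit HERC5, and for the 3 members under the floor no difference is reported.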
